A study of Mus musculus with 10 samples.

Results

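Macrophages and other phagocytes of muscle were followed through 35 genes in gastrocnemius of D257A mice, which carry Polg, the mitochondrial DNA polymerase, in a form without proofreading on both alleles (PolgD257A/D257A), against WT mice (Polg+/+). The genes were chosen by name, as Fc receptors, complement C1q, NADPH oxidase subunits, lineage genes and activation genes, and every probe set that names 1 of them alone was used. Of the 35 genes, 34 have such a probe set, out of 18193 genes on the array, and the expression of Spp1 was not analysed here. All 10 animals, 5 D257A and 5 WT, were males aged 13 months, and RNA of the whole muscle was read on 1 Affymetrix Mouse Genome 430 2.0 array per mouse. The mutation is present in all cells, macrophages included, so what phagocytes did by themselves cannot be told apart from what muscle fibres did.

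Macrophages are long-lived or blood-derived phagocytes that take up debris, dying cells and antibody-coated particles. Fc receptors bind the constant part of immunoglobulin, and most of them signal through small adaptor chains with activation motifs, while one of them is inhibitory. C1q starts the classical complement cascade and also coats dying cells for uptake. The NADPH oxidase of phagocytes makes superoxide from a membrane pair of subunits that cytosolic subunits join on activation. In skeletal muscle, resident macrophages lie between the fibres, and their number and state are known to change when fibres are damaged and regenerate.

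Of the 29 members bright enough to test, 9 were higher in D257A mice and 0 were lower. They were the lectin Lgals3, the Fc receptors Fcgr2b and Fcgr3, the pore-forming protein Mpeg1, the scavenger receptor Cd163, the glycoprotein Gpnmb, the lysozymes Lyz1 and Lyz2 and the adaptor Tyrobp, with fold changes from 1.503 to 2.49. A gene was read from its brightest probe set, and called higher or lower at a limma adjusted p under 0.05 over all 22518 probe sets tested. Over the array, 3.71% of the 11216 tested genes were higher and 3.52% were lower by the same rule. Of the 61 probe sets of the members, 42 were tested, 12 were higher and 0 were lower, against 3.64% higher and 3.74% lower of all probe sets. At an unadjusted limma p under 0.05, 17 members were higher and 0 were lower, against 11.1% higher and 11.7% lower of all genes tested. The methods' t-test gave 16 members higher and 0 lower at an unadjusted p under 0.05, against 10.8% and 11.2% of all genes tested. After adjustment it gave 6 higher and 0 lower, against 2.34% and 2.09%. The genes it called were Fcgr2b, Fcgr3, Lgals3, Lyz1, Tyrobp and Cybb, the last of which limma did not call. Cd163, Mpeg1, Gpnmb and Lyz2 were called by limma and not by it. The log2 fold change was positive for 28 of the 29 members, against 48.6% of all genes tested, and its median was 0.48 against -0.01. The same 28 were positive after quantile normalization or centring of the arrays on their median, while C1qa and Cd68 joined Fcgr1 below 0 when the arrays were not scaled.

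**Figure D1:**
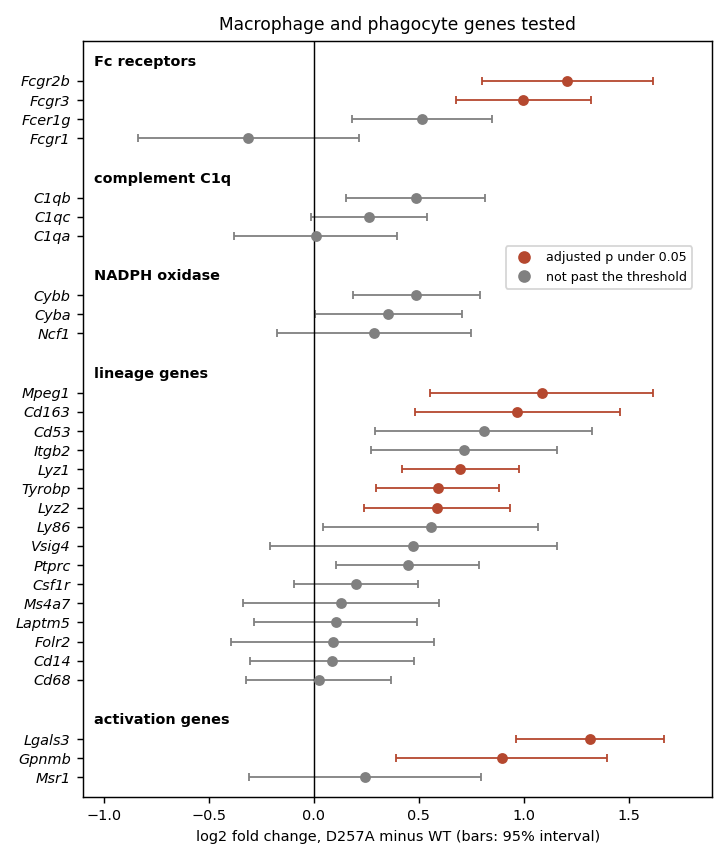
Log2 fold change (D257A minus WT, x axis) of each of the 29 tested members with its 95% interval (bars), grouped by role and ordered by size within a role. Red points passed an adjusted p of 0.05 and grey points did not. The called members lie among the Fc receptors, the lineage genes and the activation genes, and Fcgr1 is the only point below 0.

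All values below are signals on a linear scale, after each array was scaled to a trimmed mean of 500, and they compare mice for 1 probe set, not genes with each other. D257A mice are given in the order 2-17M, 2-21M, 2-25M, 2-27M and 2-30M, and WT mice in the order 1-12M, 1-13M, 2-3M, 2-32M and 3-18M. Precision is set by the small number of mice. WT mouse 1-13M stood apart over the array: without it, 1648 probe sets were higher and 1780 were lower in D257A mice, against 819 and 843 with it. Results that rest on it are also given without it. Because whole muscle was used, more cells of a type and more RNA per cell cannot be told apart. The sum of 10 skeletal muscle markers was 466219 to 502001 in D257A mice and 406712 to 532562 in WT mice, with 0 of 10 called by limma. At an unadjusted limma p under 0.05, 1 was higher and 0 were lower, against 11.1% and 11.7% of all genes tested. The sum of 9 cochlea markers, a tissue that a line of the protocol names, was 455 to 668 in D257A mice and 622 to 717 in WT mice.

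Lgals3 and Gpnmb, which macrophages express as they become activated or load lysosomes with debris, were both higher in D257A mice. Lgals3 encodes galectin-3, a lectin that binds galactose-containing sugars. Its signal was 1733, 1456, 1278, 1406 and 1404 in D257A mice, against 584, 711, 408, 743 and 528 in WT mice. Every D257A mouse lay above every WT mouse, and the distance between the genotypes was wider than the range within either of them. The D257A mean was 1455 ± 169 against a WT mean of 595 ± 137 (SD, n = 5 each), a log2 fold change of 1.32 (standard error 0.16, 95% interval 0.96 to 1.67, limma adjusted p = 6.38e-04). Gpnmb encodes a membrane glycoprotein of lysosome-rich macrophages. It read 510, 480, 421, 348 and 542 in D257A mice, against 238, 464, 218, 213 and 171 in WT mice. The genotypes overlapped through WT mouse 1-13M alone, whose signal was above those of 2 D257A mice. With all mice the log2 fold change was 0.89 (standard error 0.23, limma adjusted p = 0.0341), and it was 1.13 without WT mouse 1-13M (adjusted p = 6.04e-04). Leaving out any of the others except D257A mouse 2-27M ended the call, at adjusted p from 0.0634 to 0.0855.

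Msr1, a scavenger receptor for modified lipoproteins, was dim, with 114, 59.0, 100.4, 86.5 and 102 in D257A mice, against 95.4, 78.0, 86.7, 63.2 and 62.4 in WT mice. The genotypes overlapped, and the log2 fold change of Msr1 was 0.24, with a 95% interval of -0.31 to 0.80 (limma adjusted p = 0.611). Its other probe sets were too dim to test. The brightest of those read 63.0 to 142 in D257A mice and 23.6 to 92.9 in WT mice, again with overlap. Trem2, a lipid-sensing receptor that signals through Tyrobp, fell below the brightness limit. Its signal was 33.3, 91.1, 63.5, 106 and 97.4 in D257A mice, against 12.7, 54.7, 69.0, 2.85 and 27.2 in WT mice. The genotypes overlapped, and no test was made.

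The promoters of 4 called members are shown, since they belong to the Fc receptors and activation genes with the largest changes, and since binding sites of myeloid transcription factors can be looked for in them. They are RefSeq sequences of GRCm38.p6, each 250 bases before to 50 bases after a start of the gene, written 5′ to 3′ on the gene's strand. For Fcgr3 that start lies inside the gene, which spans 171051169 to 171065915. Capitals mark matches on either strand to GAGGAAG (PU.1), TTGCNNAA (C/EBP), TGANTCA (AP-1) or TCANGTGA (MITF), which do not overlap here.
Lgals3, chr14:47373610-47373909, plus strand: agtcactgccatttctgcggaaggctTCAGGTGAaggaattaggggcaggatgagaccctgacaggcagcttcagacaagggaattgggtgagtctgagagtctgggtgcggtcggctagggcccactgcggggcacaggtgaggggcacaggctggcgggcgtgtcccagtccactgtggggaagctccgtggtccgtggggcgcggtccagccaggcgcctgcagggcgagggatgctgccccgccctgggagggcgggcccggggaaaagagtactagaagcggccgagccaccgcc
Gpnmb, chr6:49036268-49036567, plus strand: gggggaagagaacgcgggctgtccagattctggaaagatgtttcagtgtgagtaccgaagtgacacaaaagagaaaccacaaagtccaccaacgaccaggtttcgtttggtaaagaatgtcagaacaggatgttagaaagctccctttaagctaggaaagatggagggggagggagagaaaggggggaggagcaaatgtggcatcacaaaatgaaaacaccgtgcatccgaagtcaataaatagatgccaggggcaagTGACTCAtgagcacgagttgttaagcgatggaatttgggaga
Fcgr2b, chr1:170976022-170976321, minus strand: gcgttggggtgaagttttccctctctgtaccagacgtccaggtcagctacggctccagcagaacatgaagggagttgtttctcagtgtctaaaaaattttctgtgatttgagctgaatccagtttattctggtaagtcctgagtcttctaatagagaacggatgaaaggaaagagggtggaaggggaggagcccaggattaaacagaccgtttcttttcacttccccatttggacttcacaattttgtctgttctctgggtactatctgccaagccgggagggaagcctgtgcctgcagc
Fcgr3, chr1:171059354-171059653, minus strand: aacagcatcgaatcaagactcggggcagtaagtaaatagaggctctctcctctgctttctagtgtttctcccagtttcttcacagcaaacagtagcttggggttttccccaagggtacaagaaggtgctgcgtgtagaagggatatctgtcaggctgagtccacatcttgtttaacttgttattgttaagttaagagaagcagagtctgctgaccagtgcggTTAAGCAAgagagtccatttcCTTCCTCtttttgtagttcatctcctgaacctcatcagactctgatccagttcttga

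A match to the MITF letters lay at -224 to -217 in the Lgals3 promoter, and an AP-1 match at 9 to 15 in that of Gpnmb, counted from the start. The Lgals3 match reads TCAGGTGA. Because N in TCANGTGA stands for any base, a match to those letters need not be a MITF site. The Fcgr3 promoter shown held a C/EBP match at -28 to -21 and a PU.1 match at -7 to -1, while the Fcgr2b promoter held no match to the 4 motifs. In another, overlapping Fcgr3 promoter the C/EBP match lay at -37 to -30 and the PU.1 match at -16 to -10. Promoters were found for 27 of the 35 members, 8 of them called. PU.1 letters occurred in 8 of the 27, among the called members in Fcgr3 alone, and C/EBP letters in 5 of the 27, of which Fcgr3 and Lyz1 were called. Both counts include Spp1, which has no expression value here, and Trem2, which was too dim to test. The PU.1 count also includes Itgam, too dim to test. AP-1 letters occurred in 6 of the 27, with Gpnmb the called one, and MITF letters in Lgals3 alone. A gene was counted if any of its promoters held a match, and over all 27025 genes the shares were 15.4% for PU.1, 12.2% for C/EBP, 8.97% for AP-1 and 4.78% for MITF. A match of letters is a description of the window and no evidence of binding.

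Among the Fc receptors, Fcgr2b and Fcgr3 were higher in D257A mice and Fcer1g and Fcgr1 did not pass the test. Fcgr2b encodes the inhibitory receptor for IgG complexes, also known from B cells. Its signal was 1175, 544, 987, 785 and 1030 in D257A mice, against 373, 365, 341, 361 and 462 in WT mice. The genotypes did not overlap, and D257A mouse 2-21M was the nearest to WT. D257A mice averaged 904 ± 245, against 380 ± 46.9 for WT mice (SD, n = 5 each), and the log2 difference was 1.21 (standard error 0.19, limma adjusted p = 0.00256). Of the 4 tested probe sets of Fcgr2b, 3 were called, at log2 fold changes of 1.21, 1.08 and 0.84, and the other was not (0.27, adjusted p = 0.404). Such probe sets can detect different transcripts of the gene or share probes with its neighbour Fcgr3, so how the change divides among them is uncertain.

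Fcgr3 encodes an activating receptor of low affinity for IgG. Its signal was 621, 465, 484, 398 and 499 in D257A mice, against 259, 291, 235, 222 and 221 in WT mice. Every D257A mouse was above every WT mouse. Expression was higher by 1.00 on the log2 scale (standard error 0.15, 95% interval 0.68 to 1.32, limma adjusted p = 0.0021). Fcgr2b and Fcgr3 lie on chromosome 1 of GRCm38.p6, within 105 kb of each other.

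Fcer1g encodes the adaptor chain through which Fcgr3 and Fcgr1 signal. It read 358, 273, 421, 355 and 386 in D257A mice, against 239, 232, 291, 215 and 274 in WT mice, so that 4 D257A mice lay above all WT mice and 2-21M did not. Its log2 fold change of 0.51 (95% interval 0.18 to 0.85) missed the threshold (limma adjusted p = 0.0594), and passed without D257A mouse 2-21M (0.61, adjusted p = 0.0341). Fcgr1, the receptor of high affinity for IgG, was dim on both of its tested probe sets. The brighter one read 78.1, 63.1, 86.4, 81.8 and 81.9 in D257A mice, against 117, 77.6, 139, 84.4 and 78.9 in WT mice. Its log2 fold change was -0.31 (95% interval -0.84 to 0.21, adjusted p = 0.475), whereas that of the other probe set was 0.72 (0.09 to 1.35, adjusted p = 0.151). The sign for Fcgr1 thus differed between its probe sets, and neither passed.

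**Figure D2:**
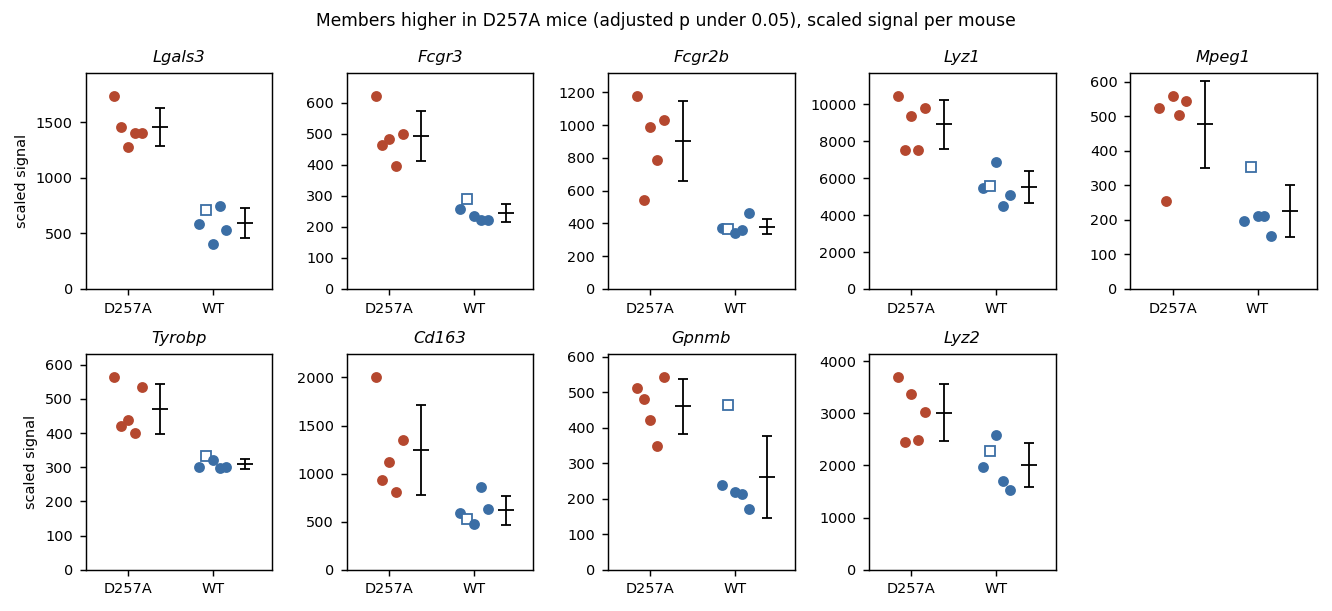
Scaled signal (y axis, linear, from 0) of the 9 called members in each D257A mouse (red, left) and each WT mouse (blue, right), with the mean and SD beside each group. WT mouse 1-13M is drawn as an open square. The genotypes do not overlap for Lgals3, Fcgr3, Fcgr2b, Lyz1 and Tyrobp, and overlap for Mpeg1, Cd163, Gpnmb and Lyz2.

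Of the 16 tested lineage genes, 5 were higher in D257A mice, 0 were lower and 16 had a positive log2 fold change, with a median of 0.52. Of all genes tested, 3.71% were higher, 3.52% were lower and 48.6% had a positive log2 fold change. Mpeg1 encodes perforin-2, which forms pores in the membranes of engulfed bacteria. Its signal was 524, 256, 558, 504 and 546 in D257A mice, against 196, 353, 212, 210 and 154 in WT mice. D257A mouse 2-21M lay below WT mouse 1-13M, and the other 4 D257A mice lay above all WT mice. The log2 difference for Mpeg1 was 1.09 (standard error 0.25, limma adjusted p = 0.0184), and 1.26 without WT mouse 1-13M (adjusted p = 0.00181). The call was narrowly lost without D257A mouse 2-17M (adjusted p = 0.0523), D257A mouse 2-25M (0.0523) or WT mouse 1-12M (0.0505).

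Cd163 encodes the receptor by which macrophages clear haemoglobin bound to haptoglobin. Its signal was 2003, 938, 1120, 810 and 1353 in D257A mice, against 594, 527, 472, 856 and 633 in WT mice. D257A mouse 2-17M was the highest, and the genotypes overlapped through D257A mouse 2-27M and WT mouse 2-32M. The log2 difference for Cd163 was 0.97 (standard error 0.23, limma adjusted p = 0.0209). The call was lost without D257A mouse 2-30M (adjusted p = 0.0511), WT mouse 1-12M (0.0529) or WT mouse 2-3M (0.0594).

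Tyrobp encodes DAP12, an adaptor with an activation motif that carries the signals of Trem2 and other receptors. It read 564, 420, 438, 400 and 534 in D257A mice, against 300, 332, 320, 299 and 299 in WT mice. The WT mice lay close together and all D257A mice were above them. The log2 fold change was 0.59 (standard error 0.14, limma adjusted p = 0.0198). Its call was lost when D257A mouse 2-17M (adjusted p = 0.0552), D257A mouse 2-30M (0.0516), WT mouse 1-12M (0.0516) or WT mouse 2-32M (0.0505) was left out.

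The lysozymes Lyz1 and Lyz2 digest bacterial cell walls, and in the mouse Lyz2 is the form typical of macrophages and neutrophils. Lyz2 read 3694, 2449, 3376, 2493 and 3034 in D257A mice, against 1976, 2282, 2576, 1697 and 1526 in WT mice, and the genotypes overlapped through WT mouse 2-3M. Its log2 fold change was 0.59 (standard error 0.16, limma adjusted p = 0.0420). The call ended when D257A mouse 2-17M, 2-25M or 2-30M was left out (adjusted p = 0.112, 0.106 and 0.0810), and when WT mouse 1-12M, 2-32M or 3-18M was left out (0.0892, 0.107 and 0.0761).

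Lyz1 read 10438, 7532, 9354, 7524 and 9801 in D257A mice, against 5489, 5554, 6884, 4508 and 5102 in WT mice, with no overlap. Its log2 fold change was 0.70 (standard error 0.13, limma adjusted p = 0.00602). That probe set and the other called one of Lyz1 (0.82, adjusted p = 0.00491) are of a kind whose probes may also bind related transcripts. The one remaining Lyz1 probe set was dim, with 24.9 to 72.04 in D257A mice and 7.46 to 58.6 in WT mice, and was not tested. Lyz1 and Lyz2 lie within 15.3 kb on chromosome 10, and which of them gave the Lyz1 signal is uncertain. The counts of 9 called members and 5 called lineage genes may therefore hold the same transcript under both names.

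The other 11 tested lineage genes did not pass. Itgb2, the shared beta chain of leukocyte integrins, had a log2 fold change of 0.71 (95% interval 0.27 to 1.16, limma adjusted p = 0.0515), with 154 to 306 in D257A mice and 113 to 177 in WT mice. Cd53, a tetraspanin of leukocytes, had 0.81 (0.29 to 1.32, adjusted p = 0.0567). Both passed without D257A mouse 2-21M, Itgb2 at 0.87 (adjusted p = 0.0180) and Cd53 at 1.00 (0.0178), and Cd53 also passed without WT mouse 3-18M (0.94, 0.0328). Ptprc, which encodes the pan-leukocyte antigen CD45, had 0.45 (0.11 to 0.79, adjusted p = 0.105).

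Several of the classic macrophage markers had small differences. Cd68, a lysosomal glycoprotein, averaged 320 ± 39.8 in D257A mice, against 317 ± 60.4 in WT mice (SD, n = 5 each), a log2 fold change of 0.02 with a 95% interval of -0.32 to 0.37. Csf1r, the receptor for the macrophage growth factor CSF1, had 0.20 (-0.10 to 0.49), and its other tested probe sets had 0.19 and 0.04. Cd14, the co-receptor for bacterial lipopolysaccharide, had 0.09 (-0.30 to 0.48).

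Folr2, a folate receptor of resident macrophages, had a log2 fold change of 0.09 (95% interval -0.39 to 0.57), and Ms4a7, a membrane protein of macrophages, had 0.13 (-0.34 to 0.60). Vsig4, a complement receptor of resident macrophages, had 0.47 (-0.21 to 1.16) and was highest in D257A mouse 2-17M, at 286, against 84.3 to 137 in the other D257A mice and 64.9 to 162 in WT mice. Ly86, a partner of a Toll-like receptor homologue, had 0.56 (0.04 to 1.07, adjusted p = 0.174). Laptm5, a lysosomal membrane protein of leukocytes, had 0.10 on its brightest probe set, and its other tested probe sets had 0.71 (adjusted p = 0.0654) and -0.22 (adjusted p = 0.599). Itgam, Spi1 and Aif1 were too dim to test. Itgam, the integrin chain CD11b, read 7.75 to 68.1 in D257A mice and 5.16 to 44.1 in WT mice. Spi1, which encodes PU.1, read 43.6 to 147 in D257A mice and 9.35 to 122 in WT mice. Aif1, the actin-bundling protein IBA1, read 32.1 to 77.2 in D257A mice and 7.82 to 59.9 in WT mice.

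No complement C1q gene passed the test, and the 3 chains differed in size of change. At an unadjusted limma p under 0.05, 1 of 3 was higher and 0 were lower, against 11.1% and 11.7% of all genes tested. C1qb read 1092, 829, 947, 907 and 970 in D257A mice, against 670, 732, 856, 704 and 476 in WT mice, with an overlap of D257A mouse 2-21M and WT mouse 2-3M. Its log2 fold change was 0.48 (95% interval 0.15 to 0.82, limma adjusted p = 0.0734), and it passed without WT mouse 1-13M (0.51, adjusted p = 0.0400). The other tested probe sets of C1qb had 0.55 (adjusted p = 0.0694) and 0.07 (adjusted p = 0.819).

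C1qc read 599, 452, 592, 574 and 619 in D257A mice, against 488, 467, 448, 526 and 426 in WT mice. D257A mouse 2-21M lay within the WT range and the other 4 lay above it. The log2 fold change was 0.26 (-0.02 to 0.54, adjusted p = 0.241). C1qa read 558, 444, 598, 490 and 485 in D257A mice, against 454, 544, 737, 543 and 346 in WT mice. All D257A mice lay within the WT range, with a log2 fold change of 0.01 (-0.38 to 0.40, adjusted p = 0.988). The genes for the 3 chains lie within 18.7 kb on chromosome 4, and the differences between their fold changes were not tested.

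No NADPH oxidase gene passed limma either. At an unadjusted limma p under 0.05, 2 of 3 were higher and 0 were lower, against 11.1% and 11.7% of all genes tested. Cybb, the catalytic subunit gp91phox, read 368, 300, 323, 320 and 353 in D257A mice, against 247, 233, 287, 209 and 214 in WT mice. The genotypes did not overlap, although the log2 fold change of 0.49 (95% interval 0.18 to 0.79) narrowly missed the threshold (limma adjusted p = 0.0515). It passed without WT mouse 1-13M (0.48, adjusted p = 0.0439). The other tested probe sets of Cybb had 0.18 and 0.12 and overlapped between genotypes.

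Cyba, its membrane partner p22phox, read 433, 433, 417, 437 and 483 in D257A mice, against 351, 259, 479, 379 and 292 in WT mice. The D257A mice lay close together and WT mouse 2-3M fell among them, with a log2 fold change of 0.36 (0.00 to 0.71, adjusted p = 0.208). Ncf1, the cytosolic organizer p47phox, read 226, 127, 210, 182 and 183 in D257A mice, against 115, 213, 151, 160 and 126 in WT mice. The groups overlapped widely, at 0.29 (-0.17 to 0.75, adjusted p = 0.453). Ncf4, the cytosolic subunit p40phox, was too dim to test, with 58.3, 76.2, 73.6, 26.2 and 21.2 in D257A mice, against 53.2, 90.8, 89.3, 13.8 and 105 in WT mice. Signals of Ncf4 spread widely in both genotypes and overlapped.

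**Figure D3:**
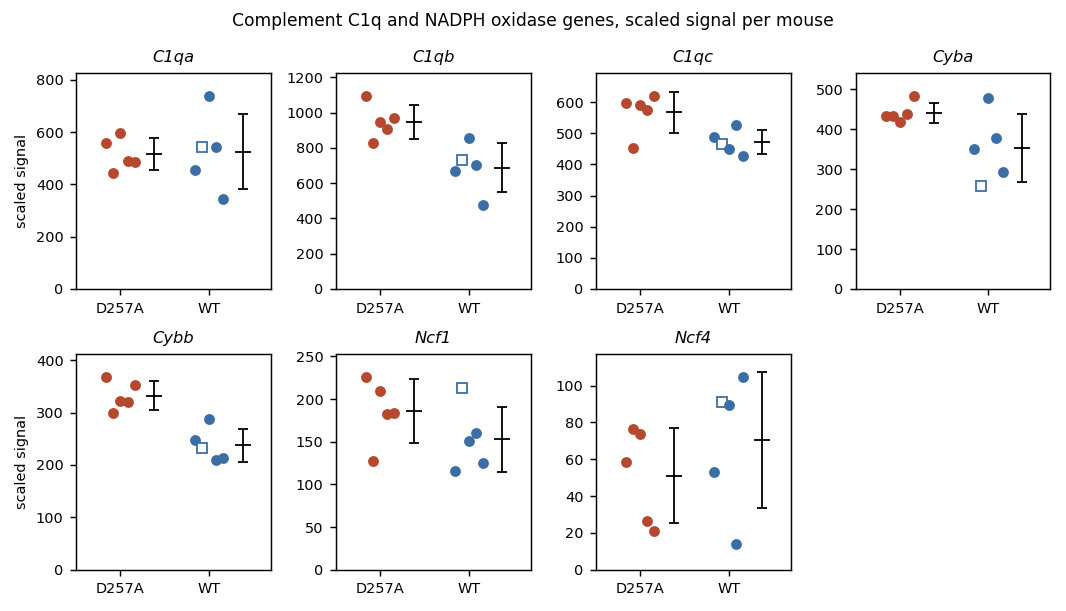
Scaled signal (y axis, linear, from 0) of the complement C1q genes and the NADPH oxidase genes in each D257A mouse (red, left) and each WT mouse (blue, right), with the mean and SD beside each group. WT mouse 1-13M is drawn as an open square. The genotypes do not overlap for Cybb alone, and Ncf4 was not tested.

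Counted over all 29 tested members, 6 had every D257A mouse above every WT mouse, and 0 had every D257A mouse below, against 3.93% and 3.47% of all genes tested. The 6 were Lgals3, Fcgr3, Fcgr2b, Lyz1, Tyrobp and Cybb. The members ordered the D257A mice unevenly. Mouse 2-21M was the lowest D257A mouse for 18 of 29 members (62.1%), against 20.7% of all genes tested, and mouse 2-17M was the highest for 15 (51.7%), against 24.1%. Among WT mice, 2-3M was the highest for 11 of 29 members (37.9%), against 15.5% of all genes tested. For Lgals3 and Gpnmb, WT mouse 2-3M was not the highest, and D257A mouse 2-21M was not the lowest. The same held for Fcgr3, Cd163, Tyrobp, Ptprc, Ly86 and Ms4a7. These shares are a description, since members measured in 1 mouse share its tissue sample and array.

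**Figure D4:**
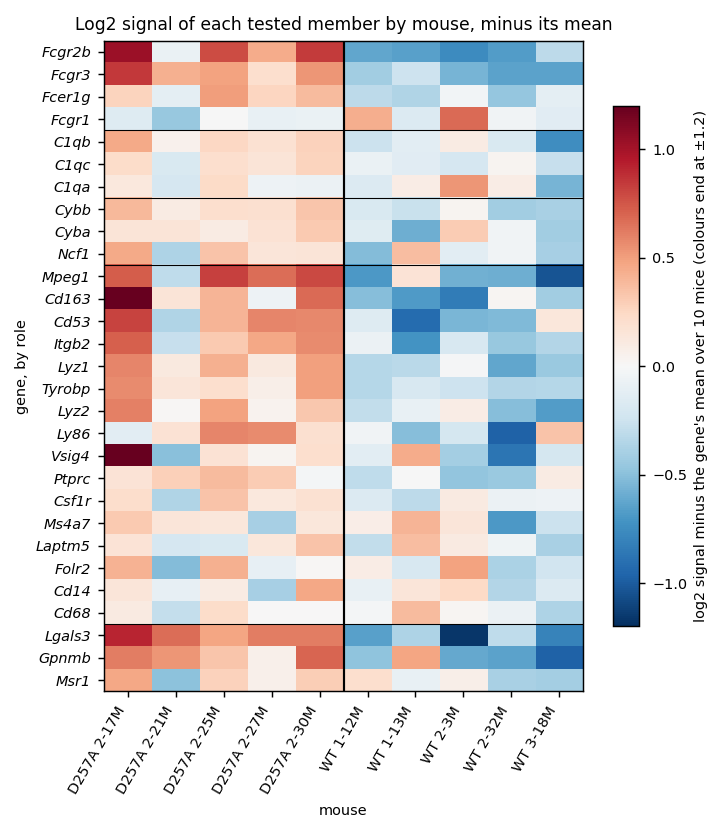
Log2 signal of each tested member (rows, by role) in each mouse (columns, D257A left of the line, WT right), minus the gene's mean over the 10 mice (red above it, blue below it). The D257A side is mostly red, and column 2-21M is paler or bluer than the other D257A columns for most genes, but not for all.

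The genes around these members were taken from lists of their pathways. Of 12 tested growth factors, their receptors and transcription factors of macrophages, 1 was higher in D257A mice and 0 were lower. Over all genes tested, 3.71% were higher and 3.52% were lower. The called gene was Csf2rb, the shared receptor chain for GM-CSF, interleukin-3 and interleukin-5. Its signal was 581, 259, 326, 321 and 425 in D257A mice, against 130, 211, 166, 94.96 and 104 in WT mice, without overlap, and its log2 fold change was 1.44 (standard error 0.26, limma adjusted p = 0.00491). Of 10 tested genes for the uptake of dying cells, 1 was higher and 0 were lower. That gene was Abca1, a cholesterol exporter, with 4013, 2762, 3597, 3032 and 3011 in D257A mice, against 2364, 2084, 1889, 2357 and 2498 in WT mice. Its genotypes did not overlap, and the log2 fold change was 0.55 (standard error 0.13, limma adjusted p = 0.0196). At an unadjusted limma p under 0.05, 4 of the 12 and 3 of the 10 were higher and 0 were lower. The shares of all genes tested at that threshold were 11.1% higher and 11.7% lower. None passed among 7 tested genes of Fc receptor and ITAM signalling, 5 other oxidase subunits and controls and 9 complement genes outside C1q, where limma gave 2, 0 and 2 higher and 0, 0 and 1 lower at an unadjusted p under 0.05. The median log2 fold changes of these 5 lists lay between -0.04 and 0.20.

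Markers of other cells that share member genes were read beside them, since neutrophils also carry Fc receptors, the oxidase and Lyz2. The sum of 8 neutrophil markers was 913, 681, 719, 615 and 3404 in D257A mice, against 533, 634, 690, 379 and 947 in WT mice. D257A mouse 2-30M stood far above all others, through S100a8, S100a9 and Ngp. Of the 3 neutrophil markers tested, 0 were called (1 higher and 0 lower at an unadjusted limma p under 0.05, against 11.1% and 11.7% of all genes tested). Without that mouse, 5 members remained called, namely Fcgr2b, Fcgr3, Lgals3, Lyz1 and Mpeg1. The other 4 kept positive log2 fold changes, of 0.92 for Cd163, 0.54 for Tyrobp, 0.58 for Lyz2 and 0.83 for Gpnmb, and over the array 555 probe sets were higher without that mouse, against 819 with it. The part of neutrophils in the members' signals was not tested.

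For the lists that follow, the shares of all genes tested were 3.71% higher and 3.52% lower at a limma adjusted p under 0.05. At an unadjusted limma p under 0.05 they were 11.1% and 11.7%. T cell, B cell and NK cell markers were mostly dim, with 1 of 8, 1 of 7 and 1 of 7 genes tested and 0 called (0 higher and 1 lower at an unadjusted limma p under 0.05, the 1 being a T cell marker). The sum of the 8 T cell markers was 189 to 292 in D257A mice and 279 to 469 in WT mice. The 7 B cell markers summed to 260 to 384 in D257A mice and 283 to 427 in WT mice, and the 7 NK cell markers to 235 to 350 in D257A mice and 227 to 395 in WT mice. Of 3 tested dendritic cell markers 0 were called (1 higher and 1 lower at an unadjusted limma p under 0.05), and the sum of 7 was 500 to 624 in D257A mice and 381 to 652 in WT mice. Of 4 tested mast cell markers, Cma1, a chymase, was lower, with a log2 fold change of -1.04 (limma adjusted p = 0.0287), and the sum of 8 was 662 to 813 in D257A mice and 876 to 1049 in WT mice. Of 8 fibroblast markers, 4 were lower, Pi16, Col1a2, Col3a1 and Col1a1, with log2 fold changes from -2.87 to -1.80 (limma adjusted p of 0.0282 at most). All 8 had a negative log2 fold change, and 5 were lower and 0 higher at an unadjusted limma p under 0.05. For Col3a1 and Col1a1, WT mouse 1-13M lay within the D257A range. Without that mouse the log2 fold change was -2.28 for Col3a1 and -3.40 for Col1a1 (limma adjusted p = 5.26e-05 and 0.00255). The sum of the 8 was 22385 to 26350 in D257A mice and 22589 to 38046 in WT mice. Of 7 adipocyte markers, Retn was higher (1.18, limma adjusted p = 0.0452), and 3 were higher and 2 lower at an unadjusted limma p under 0.05. The sum of these 7 was 30502 to 45370 in D257A mice and 23663 to 32190 in WT mice, and D257A mouse 2-27M alone of its genotype lay within the WT range. None of 3 erythroid, 8 endothelial and 4 Schwann cell markers tested was called, and at an unadjusted limma p under 0.05 there were 1, 1 and 0 higher and 0 lower in these lists. Whether the share of other cell types moved the members' signals was not tested.

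Without WT mouse 1-13M, 11 members were called higher, the same 9 with C1qb and Cybb, but 7.76% of all genes were then higher as well. With other mice left out, the count was 4 without WT mouse 1-12M, 5 without D257A mouse 2-17M and 5 without D257A mouse 2-30M. In each of these fits, fewer probe sets over the whole array were higher as well, as given below. Lgals3, Fcgr2b and Fcgr3 were called with each mouse left out in turn, and so was Lyz1. Mouse numbers start with 2 for all D257A mice and for 2 WT mice, a digit that the labels leave unexplained. Among the mice numbered 2 alone, 7 members were higher, and 3 (Lgals3, Fcgr2b and Fcgr3) remained with the digit as a block, where Lyz1 had an adjusted p of 0.0721 (limma). With the block, fewer probe sets over the whole array were higher too. That count is not given here for the mice numbered 2.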

How the data were processed

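The deposited intensity values are linear signals, 1 for each probe set of each array. The submitters' processing notes name GCOS 1.3, with which the authors made them. No detection calls come with them. The study states a target of 500 for scaling, but the deposited columns had trimmed means (2% left out at each end) of 93.4 to 106 in D257A mice and 94.5 to 129 in WT mice. Each array was therefore multiplied to a trimmed mean of 500, and log2 of these signals was analysed. The 64 AFFX controls of the 45101 probe sets were set aside, and the 22518 brighter than the median (log2 signal of 6.26 or more) were tested by genotype alone in limma 3.58.1 under R 4.3.3, using lmFit and then eBayes with its trend of variance on mean, with p-values adjusted by Benjamini-Hochberg over them. limma replaced the t-test that the methods name for comparing means in general, which was kept as an alternative with the same adjustment. For the arrays, the study's supplement names pairwise comparisons in GCOS and Significance Analysis of Microarrays. Those were not repeated here.

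Probe sets were named through the platform's gene table: 34945 named 1 gene, 932 several and 9160 none, and only the first were used. A gene was represented by its brightest such probe set. All called members and all Fc receptor, C1q, oxidase and activation genes were to be given by mouse, and of each pathway or marker list the called genes. The members and lists were chosen with earlier results of these data known. Promoters came from RefSeq and positions from GRCm38.p6. Promoters of C1qa, Ncf4, Cd14, Csf1r, Itgb2, Spi1, Tyrobp and Msr1 were not used here.

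Each of the 10 mice is 1 sample. The methods say that several animals were killed on each day, and the sources used here do not tell which of these mice shared a day or a litter. Alternatives were other scalings, filters, variance models and probe set rules, an offset of 32, array weights, the mice numbered 2, their leading digit as a block, and each mouse left out. On simulated data of 22518 probe sets for this comparison, limma recovered 25%, 65% and 99% of log2 changes of 0.5, 1 and 2, with 10 false calls. Each probe set was simulated independently, with normal noise and no difference shared over an array. These rates may therefore not hold for the real arrays. Tables and figures were made in Python 3.11.15 (pandas 2.3.3, NumPy 2.4.6, matplotlib 3.10.9).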

Additional observations from a re-analysis of the deposited data

Results flagged for a closer look

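Of 58 combinations of a tested member and a genotype, 3 held a mouse far from the other 4 by Dixon's ratio, with a critical value of 0.71. The ratio is the gap to the nearest mouse over the whole range, taken on log2 signals, while the signals below are linear. Chance alone flags about 1 in 20 such groups. D257A mouse 2-21M was the low one for Mpeg1 (ratio 0.869, a signal of 256 against 504 to 558 in the other D257A mice) and for C1qc (0.759, 452 against 574 to 619). D257A mouse 2-27M was the low one for Ms4a7 (0.749, 149 against 216 to 244).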

How the results depend on the processing

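Under 22 alternatives, 0 members were lower. Lgals3 and Fcgr2b were called higher in all 22, Fcgr3 in all 21 that tested it, and Lyz1 in 21 of 22. Cd163 was called in 16 of 22, Mpeg1 in 15 of 21, Tyrobp in 14 of 21, Lyz2 in 10 of 22 and Gpnmb in 8 of 21. Lyz2 and Gpnmb lost their calls without a filter (limma adjusted p = 0.0624 and 0.0596) and without a variance trend (0.0758 and 0.0563). The count of members higher, 9 with all mice, was 15 with arrays centred on their median, 5 without scaling, 5 (of 9 tested) among the brightest 25% of probe sets, 15 with array weights, 3 with the leading digit as a block, and 4 to 11 with 1 mouse left out. It stayed within 1.5 times under the rest. Centring shifted the median log2 fold change of all tested probe sets by 0.13, to 0.10, and the members' median to 0.62. The members' median lay 0.51 above that of all tested probe sets with the main scaling, 0.51 with centring and 0.51 without scaling. These settings differ only by a constant for each array on the log2 scale. That distance could therefore not change between them, and its sameness tests nothing. Over the array, 819 probe sets were higher and 843 lower. The counts were 1599 higher and 418 lower with centring, 356 and 856 without scaling, 1858 and 2110 with array weights, 540 and 493 with the methods' t-test, and 291 and 271 with the block. Without a filter 541 were higher, and without a variance trend 515. With 1 mouse left out, 449 to 1648 were higher and 401 to 1780 were lower. The counts of higher and lower probe sets were 449 and 449 without D257A mouse 2-17M, 495 and 488 without D257A 2-25M, 555 and 541 without D257A 2-30M, 489 and 401 without WT 1-12M, 1648 and 1780 without WT 1-13M, 514 and 442 without WT 2-3M, and 520 and 459 without WT 2-32M. The cause of these differences was not tested. The sign turned for 6 members that were called under none of the alternatives. C1qa had -0.067 without scaling, -0.079 with array weights, -0.31 among mice numbered 2 and with the block, -0.024 without D257A mouse 2-17M, -0.048 without D257A 2-25M, -0.034 without WT 1-12M and -0.13 without WT 3-18M. Cd68 had -0.051 without scaling, -0.0019 without D257A 2-17M, -0.028 without D257A 2-25M and -0.067 without WT 3-18M. Folr2 had -0.0046 among mice numbered 2 and with the block, -0.0032 without D257A 2-17M and -0.0049 without D257A 2-25M. Cd14 had -0.019 without D257A 2-30M, Ms4a7 -0.028 without WT 2-32M, and Fcgr1 0.20 as the mean of its probe sets. No paired analysis was possible because the labels give no mouse numbers shared between genotypes. Without detection calls, the dimmest members have no stated distance from background.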
